A study of Homo sapiens with 8 samples.

Results

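The cytosolic ribosomal protein genes encode the protein parts of the ribosome that works outside mitochondria. Their mRNA levels were followed in 8 RNA-seq libraries of stromal cells of the mesenchymal kind, which had been differentiated from the human embryonic stem cell line H9 and were either frozen and thawed or never frozen. Members were chosen by gene symbol, from the RPL and RPS series together with RPLP0, RPLP1, RPLP2, RPSA and FAU, leaving out RPS6K kinases, numbered pseudogenes and entries with fewer than 200 counts over all libraries. By name 86 entries matched, and 82 of them had enough counts, among 23354 genes in the table. Of these 82, 32 were assigned by symbol to the small subunit and 50 to the large subunit. RPL21, with 260 counts, was the member nearest to the minimum. RPL3L, with 24 counts, lay just under it, followed by RPL10L with 8.

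Each library came from a different condition. In the 3 osmolyte-frozen libraries, cells were frozen without DMSO in multicomponent solutions labelled SMC, SGC and SGI. Cells had been held at room temperature in SMC for 2 h and in SGC or SGI for 1 h, and were then cooled at 3 °C per min. In the 2 DMSO-frozen libraries, cells had been held with DMSO for 1 h or 0 h and were cooled at 1 °C per min, so solution and cooling rate cannot be told apart. The 3 fresh libraries held unfrozen cells, one taken at 0 h, another kept for 1 h with DMSO and the last kept for 1 h in medium. No fresh library contained an osmolyte solution, and what SMC, SGC and SGI stand for is not expanded here because the labels do not say it. Nothing in the labels tells whether the 8 libraries stem from separate cultures, and each group pools different conditions. The p-values therefore measure only the spread between these libraries, which may be technical or may reflect those conditions. Counts summed to between 41198716 and 51166666 per library.

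Ribosomal proteins are assembled with ribosomal RNA in the nucleolus, and growing cells hold their mRNAs in high numbers. Most of these mRNAs begin with a run of pyrimidines, the 5′ terminal oligopyrimidine (TOP) tract, through which the growth-regulating kinase mTOR and the RNA-binding protein LARP1 control their translation and stability. Stromal cells that proliferate in culture make ribosomes continuously, and the transcription factor MYC is known to raise the expression of many ribosomal protein genes.

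Surface markers of stromal cells were detected in every group, at levels that moved with the comparisons below. All 8 markers on the list (ENG, THY1, NT5E, CD44, ITGB1, PDGFRB, ALCAM and MCAM) exceeded 1 CPM, the count scaled to a common library size, with summed levels of 5298 to 6193 CPM in osmolyte-frozen, 8283 to 8378 CPM in DMSO-frozen and 7175 to 8167 CPM in fresh libraries. ITGB1 made up most of these sums. Against DMSO-frozen cells, 1 stromal marker was higher in osmolyte-frozen cells, THY1, and 5 were lower, with CD44 (log2 fold change -0.84) and ALCAM (-0.79) the lowest. Against fresh cells 2 were higher and 6 lower. Of all genes tested, 13.6% were called higher and 16.5% lower in osmolyte-frozen than in DMSO-frozen cells. Compared with fresh cells, these shares were 19.1% and 21.0%. Of 8 blood and endothelial markers, 2 exceeded 1 CPM. Their sum was 4.35 to 4.87 CPM in osmolyte-frozen, 3.37 to 3.82 CPM in DMSO-frozen and 3.27 to 4.61 CPM in fresh libraries, with HLA-DRA at 0 in all. Pluripotency markers summed to 21.0 to 26.1 CPM in osmolyte-frozen, 17.7 to 17.8 CPM in DMSO-frozen and 16.1 to 17.7 CPM in fresh libraries. Of 6 pluripotency markers tested, 2 were higher in osmolyte-frozen than in DMSO-frozen cells, POU5F1 (1.05) and DPPA4 (0.58), and 5 were higher than in fresh cells, with 0 lower in both comparisons. Of 3 blood and endothelial markers tested, CDH5 was higher in osmolyte-frozen than in fresh cells and none was called against DMSO-frozen cells (edgeR; 0.0551 was the smallest adjusted p). The part of these markers' changes in the results on ribosomal protein genes was not tested. In such bulk samples, fewer cells expressing a gene and less RNA per cell cannot be told apart.

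The TOP tract was looked for at the annotated starts in RefSeq, build GRCh38.p14, as a C at the first base followed by at least 4 bases that are C or T, read on the gene's own strand. Of 67 members with an entry, 48 had it at a start (71.6%), against 1404 of 27305 genes in all (5.14%). Among the comparison lists, it was found in 13 of 17 other mRNAs known for TOP tracts, in 8 of 62 ribosome biogenesis factors, in 4 of 35 translation factors and in 6 of 69 mitochondrial ribosomal protein genes. The windows below show 15 bases before the start and 15 from it, with the tract in capitals. The first set are members with a tract that had large changes after freezing in the osmolyte solutions, described further on, and RPLP0, which differed little. Of 19 members with an entry but no tract found, 6 were called higher in osmolyte-frozen than in DMSO-frozen cells. These 6, among them RPS15 and RPS28, are not shown.
RPLP2: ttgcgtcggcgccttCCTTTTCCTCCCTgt
RPL36A: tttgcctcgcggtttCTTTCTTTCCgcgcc
RPL39: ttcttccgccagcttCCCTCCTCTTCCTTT
RPL31: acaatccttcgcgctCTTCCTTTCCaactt
RPL28: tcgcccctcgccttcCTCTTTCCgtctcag
RPS19: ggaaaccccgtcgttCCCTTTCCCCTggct
RPLP0: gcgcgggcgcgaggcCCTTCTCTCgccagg
These windows lie at chr11:809952-809981 for RPLP2, chrX:101390996-101391025 for RPL36A, chrX:119791616-119791645 for RPL39, chr2:101002274-101002303 for RPL31, chr19:55385917-55385946 for RPL28, chr19:41860240-41860269 for RPS19 and chr12:120201097-120201126 for RPLP0. RPL39 and RPLP0 are read on the minus strand and the others on the plus strand. The run of pyrimidines was 13 bases in RPLP2, 10 in RPL36A and 9 in RPLP0, so the gene that differed little also carries a tract.

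Paralogs are genes that resemble a ribosomal protein gene and are expressed from a locus of their own. Of 4 paralogs with an entry, 1 had a tract. The next set shows paralogs beside the genes they resemble.
RPL22L1: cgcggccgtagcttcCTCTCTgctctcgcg
RPL22: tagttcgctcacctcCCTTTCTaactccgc
RPS27L: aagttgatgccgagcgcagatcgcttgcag
RPS27: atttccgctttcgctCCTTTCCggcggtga
RPL26L1: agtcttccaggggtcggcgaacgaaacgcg
RPL26: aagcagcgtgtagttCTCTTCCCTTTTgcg
RPL7L1: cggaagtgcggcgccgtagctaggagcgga
The windows lie at chr3:170870181-170870210 for RPL22L1, chr1:6199581-6199610 for RPL22, chr15:63157463-63157492 for RPS27L, chr1:153990747-153990776 for RPS27, chr5:172958714-172958743 for RPL26L1, chr17:8383179-8383208 for RPL26 and chr6:42879601-42879630 for RPL7L1. RPL22L1, RPL22, RPS27L and RPL26 are read on the minus strand. RPS27L, RPL26L1 and RPL7L1 have no tract at these starts, whereas RPS27 and RPL26 do.

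Per length, the members spanned a wide range. The deposited RPKM values were highest for RPS18, a protein of the head of the small subunit, at a mean of 1112 RPKM over the 8 libraries. High values were also found for RPL41, the smallest ribosomal protein, with 976 RPKM, the stalk protein RPLP1 with 897 RPKM and RPS4X with 881 RPKM. The lowest were RPL21 with 0.88 RPKM, the paralog RPL39L with 8.65 RPKM, RPL36A with 8.92 RPKM, RPSA with 15.5 RPKM and the paralog RPL26L1 with 21.0 RPKM. Levels of single members are uncertain because these genes have many processed copies in the genome. GENCODE 29 names 1138 pseudogenes after members, with at least 1 for 77 of the 82 and a median of 8.5 per member. RPL23A has 91, RPSA 74, RPL21 66 and RPL7 61. Across the 82 members, the number of named pseudogenes and the mean RPKM had a Spearman correlation of 0.04, as a description. An overlap with another entry of the deposited table was found for 37 members, in most cases small nucleolar RNAs of their introns, and how the authors' counting treated reads shared between entries is not given in the sources used here.

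Ribosomal protein genes took a larger share of the counts in osmolyte-frozen than in DMSO-frozen cells. The share was 3.99% in SMC, 4.44% in SGC and 4.34% in SGI, against 3.43% in cells frozen with DMSO at 1 h and 3.53% at 0 h. Fresh cells had 3.66% at 0 h, 3.61% with DMSO and 4.09% in medium. The means were 4.26 ± 0.24% for osmolyte-frozen (SD, n = 3), 3.48 ± 0.065% for DMSO-frozen (SD, n = 2) and 3.79 ± 0.27% for fresh libraries (SD, n = 3). The osmolyte-frozen and DMSO-frozen libraries did not overlap, while the fresh library kept in medium lay above the SMC library. These shares depend on the total that is used. Set against the larger library total behind the authors' RPKM values, of which the counts made up 64.0 to 66.9% in osmolyte-frozen, 72.1 to 73.0% in DMSO-frozen and 66.2 to 70.4% in fresh libraries, the shares were 2.67, 2.88 and 2.78% for SMC, SGC and SGI. They were then 2.51 and 2.54% for the DMSO-frozen libraries at 1 h and 0 h, and 2.53, 2.54 and 2.71% for fresh cells at 0 h, with DMSO and in medium. The osmolyte-frozen and DMSO-frozen libraries were still apart on that scale.

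**Figure D1:**
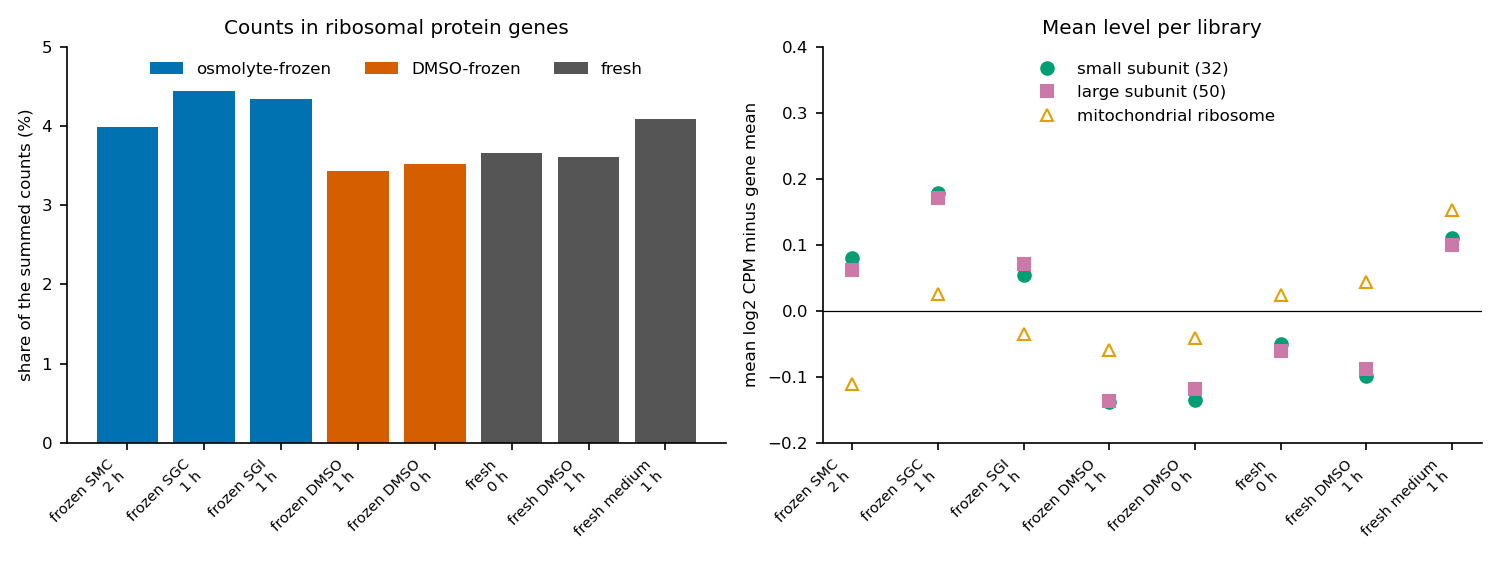
Left, share of the summed counts in the 82 ribosomal protein genes (%, bars from 0) in each library. Right, mean over genes of log2 CPM minus the gene's mean over the 8 libraries, for 32 small-subunit genes, 50 large-subunit genes and 76 mitochondrial ribosomal protein genes. Both subunits sit highest in SGC (0.18 and 0.17) and lowest in the library frozen with DMSO at 1 h (-0.14 for both), and the mitochondrial set follows another order.

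The members moved together across libraries. The correlation of a member's log2 CPM with the mean of the other members over the 8 libraries had a median of 0.92, exceeded 0.8 for 62 members and 0.5 for 75, and was lowest for RPL7L1 at -0.74. These are descriptions over libraries that share their depth and scaling. The mean deviation from each gene's own average was highest in SGC, at 0.17 on the log2 scale, followed by fresh medium at 0.10, SMC at 0.07 and SGI at 0.06. It was -0.06 in fresh cells at 0 h, -0.09 in fresh cells with DMSO, and -0.13 and -0.14 in cells frozen with DMSO at 0 h and 1 h. The 2 subunits tracked each other within each library. Among genes outside the set, those most like the members' mean over the 8 libraries included ZNHIT1, SRSF5, KRT18, EWSR1 and KRT13, each with r of 0.98, and the most opposite was RC3H2 with r of -0.99. The plot of members by library shows the shared pattern and the few genes that depart from it.

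**Figure D2:**
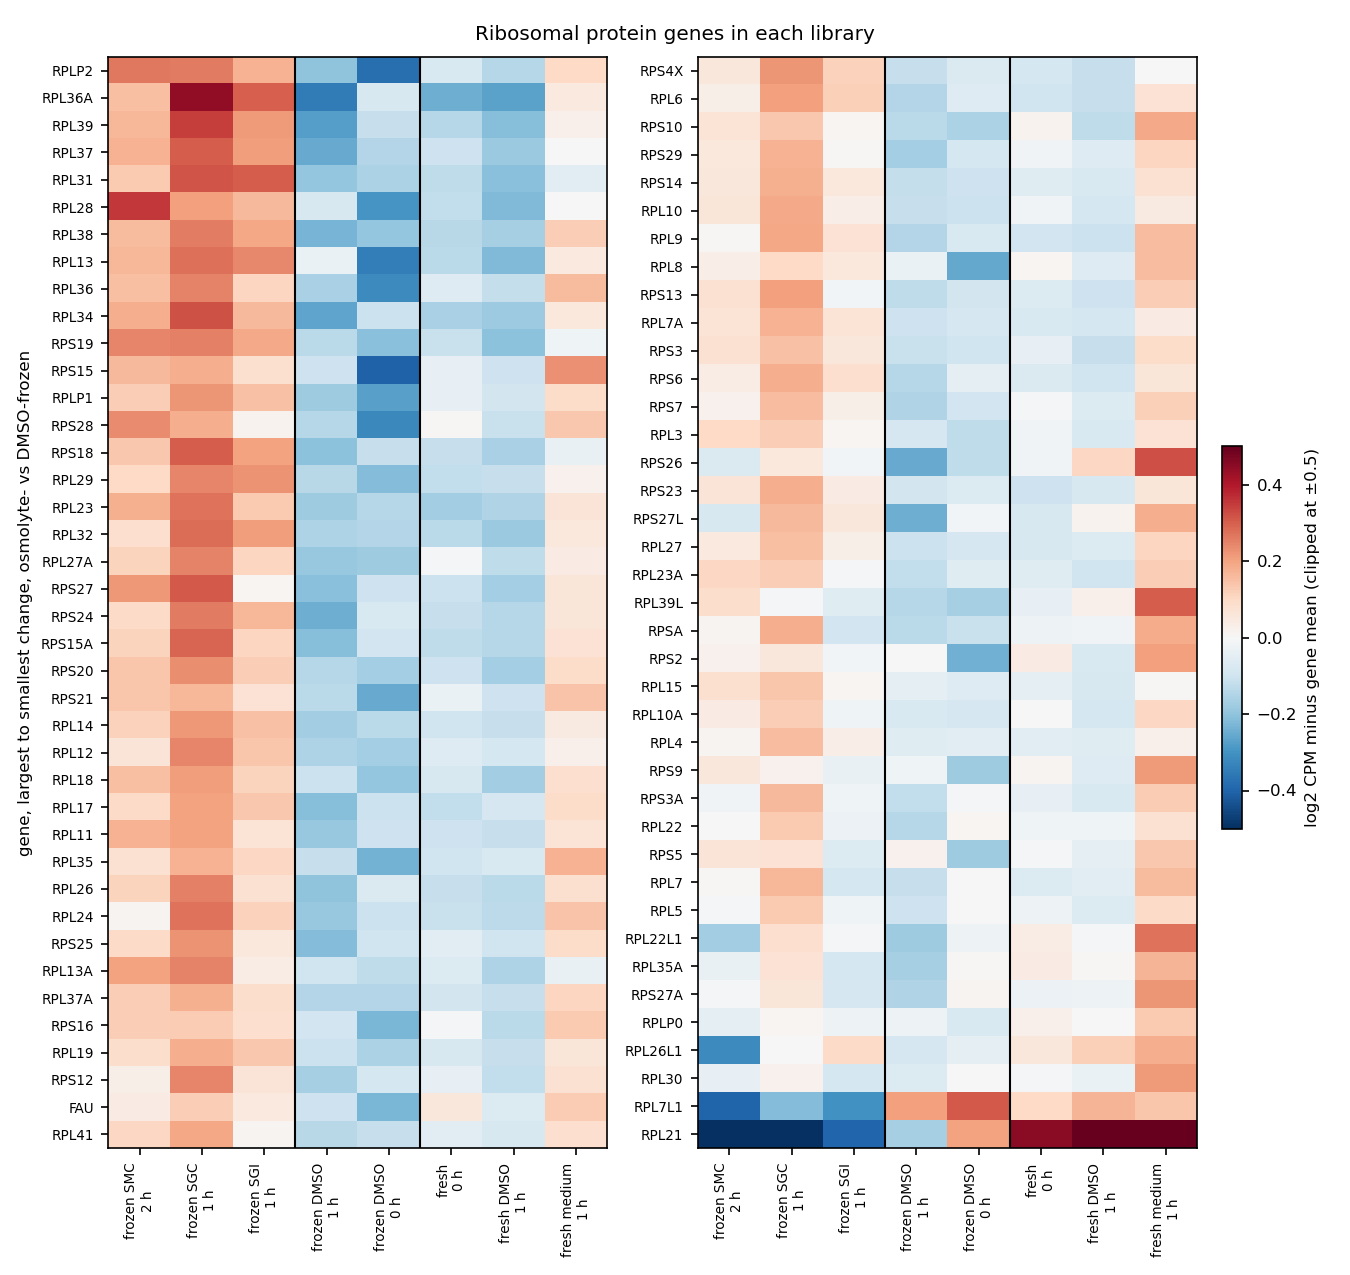
log2 CPM minus the gene's mean (colour, shown to ±0.5) for 79 of the 82 members in the 8 libraries, ordered by the change between osmolyte-frozen and DMSO-frozen cells. In each panel the left 3 columns are osmolyte-frozen, the next 2 DMSO-frozen and the last 3 fresh; most genes are high in SGC and in fresh medium, while RPL7L1 and RPL21, at the end of the order, are low in all 3 osmolyte-frozen libraries and high in all 3 fresh ones.

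The first comparison asked how cells frozen in osmolyte solutions differed from cells frozen in DMSO. Of the 82 members, 44 were higher in osmolyte-frozen cells and 1, RPL7L1, was lower, while 37 did not pass the test (edgeR's quasi-likelihood test, Benjamini-Hochberg adjusted p under 0.05 over 15564 genes). Over all genes tested, 13.6% were called higher and 16.5% lower. The median log2 fold change was 0.24 over the members and 0.04 over all genes tested, and 79 of 82 members had a positive value. Libraries of the 2 groups did not overlap for 66 members in the higher direction and 2 in the lower, where 29.1% and 27.7% of all genes did so. The changes were small and close to one another, with a 10th to 90th percentile of 0.09 to 0.41 on the log2 scale, against -0.43 to 0.69 over all genes. Of the small subunit 16 of 32 were higher, and of the large subunit 28 of 50. The members named above for a high RPKM were among them, RPS18 at 0.37, RPL41 at 0.23, RPLP1 at 0.39 and RPS4X at 0.22.

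The largest increase was in RPLP2 (hg19, chr11:809936-812876), an acidic protein of the stalk that recruits translation factors to the large subunit. It had 356, 355 and 334 CPM in SMC, SGC and SGI, against 258 and 229 CPM in cells frozen with DMSO at 1 h and 0 h, a log2 fold change of 0.52 ± 0.09 (SE; edgeR adjusted p = 0.000331). Fresh cells had 281, 268 and 318 CPM at 0 h, with DMSO and in medium. The 3 osmolyte-frozen libraries lay above all others, and the library frozen with DMSO at 0 h was the lowest.

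RPL36A, a large-subunit protein of the site where used tRNAs leave, had 41.7, 51 and 46.2 CPM in SMC, SGC and SGI, against 29.5 and 35.5 CPM in the DMSO-frozen libraries at 1 h and 0 h. The log2 fold change was 0.51 ± 0.115 (SE; edgeR adjusted p = 0.0033), with no overlap. It overlaps a readthrough entry, RPL36A-HNRNPH2, with 14 counts. RPL39, which lines the tunnel through which the new protein leaves the ribosome, had 294, 334 and 305 CPM in SMC, SGC and SGI, against 217 and 242 CPM in the DMSO-frozen libraries at 1 h and 0 h (log2 fold change 0.44 ± 0.09 SE, edgeR adjusted p = 0.00169). RPL31, at the rim of that tunnel, had 476, 541 and 536 CPM, against 381 and 389 CPM (0.43 ± 0.08, edgeR adjusted p = 0.00102). For RPL39 and RPL31 the SGC library was the highest of the 3 and the groups did not overlap.

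RPL37 had 433, 474 and 444 CPM in SMC, SGC and SGI, against 322 and 347 CPM in cells frozen with DMSO at 1 h and 0 h (log2 fold change 0.43 ± 0.08 SE, edgeR adjusted p = 0.000997). RPL28, a large-subunit protein that budding yeast lacks, had 445, 401 and 390 CPM, against 329 and 284 CPM (0.43 ± 0.09, edgeR adjusted p = 0.00229). Both were clear of overlap, and RPL28, like RPLP2 and RPS28, had its highest level of all libraries in SMC. RPS19 led the small subunit, with 664, 668 and 639 CPM in SMC, SGC and SGI, against 511 and 485 CPM in DMSO-frozen cells at 1 h and 0 h (0.40 ± 0.08, edgeR adjusted p = 0.00124). RPS19 is the gene most often mutated in Diamond-Blackfan anaemia, a red cell disorder caused by loss of single ribosomal protein genes. Other called genes of the small subunit included RPS15, RPS28, RPS18, RPS27, RPS24, RPS15A, RPS20, RPS21, RPS25, RPS16, RPS12, FAU and RPS4X. Of the large subunit they included RPL38, RPL13, RPL36, RPL34, RPLP1, RPL29, RPL23, RPL32, RPL27A, RPL14, RPL12, RPL18, RPL17, RPL11, RPL35, RPL26, RPL24, RPL13A, RPL37A, RPL19 and RPL41.

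**Figure D3:**
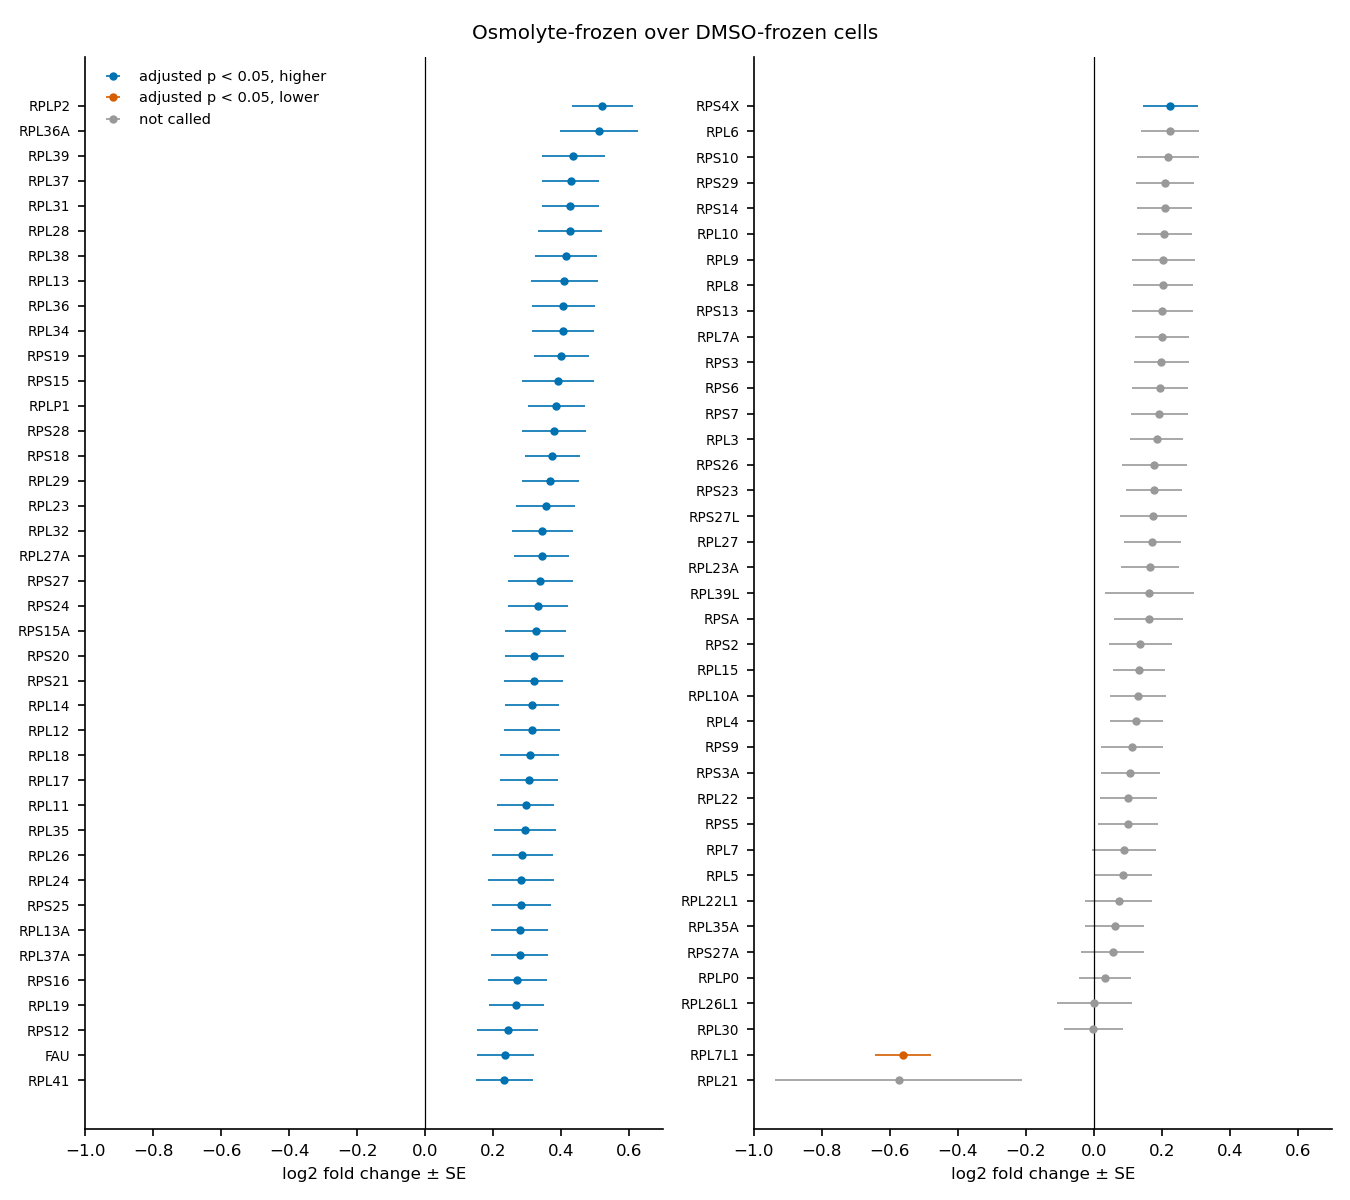
log2 fold change of 79 of the 82 members, osmolyte-frozen over DMSO-frozen cells, from edgeR, with its standard error (bars) and colour by the call at adjusted p under 0.05. The 41 called increases drawn run from 0.22 (RPS4X) to 0.52 (RPLP2); RPL7L1 at -0.56 is the 1 called decrease, and RPL21 at -0.57 has a wide error and was not called.

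RPL7L1 went against the others. It resembles RPL7, and its counterpart in yeast is a nucleolar factor of large-subunit assembly rather than a part of the finished ribosome. It had 32.5, 37.0 and 34.8 CPM in SMC, SGC and SGI, against 49.5 and 53.2 CPM in the DMSO-frozen libraries at 1 h and 0 h, and fresh cells had 46.0, 48.3 and 47.3 CPM at 0 h, with DMSO and in medium. The log2 fold change between osmolyte-frozen and DMSO-frozen cells was -0.56 ± 0.08 (SE; edgeR adjusted p = 6.89e-05), which is 1.48-fold lower. All 3 osmolyte-frozen libraries lay below all 5 others. RPL7 itself had 819, 917 and 768 CPM in SMC, SGC and SGI and 754 and 816 CPM in the DMSO-frozen libraries at 1 h and 0 h, which overlap (0.09 ± 0.09, edgeR adjusted p = 0.495).

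Of the 5 paralogs among the members, none was higher and RPL7L1 was lower. Of 7 genes that listed paralogs resemble, 3 were higher, namely RPS27, RPL26 and RPL39. The 7 include RPL3 and RPL10, whose paralogs RPL3L and RPL10L had too few counts to be members. RPS27L, which is induced by p53, had a log2 fold change of 0.17 ± 0.10 (edgeR adjusted p = 0.194), while RPS27 rose by 0.34 ± 0.10 (0.0125). RPL26L1 stood at 0.00 ± 0.11 and RPL26 rose by 0.29 ± 0.09, with edgeR adjusted p of 0.994 and 0.0217. RPL39L, known for its expression in testis, had 0.16 ± 0.13 with an edgeR adjusted p of 0.368, against the value for RPL39 above. Neither RPL22L1, at 0.07 ± 0.10, nor RPL22, at 0.10 ± 0.08, passed the test, and RPL3 and RPL10, both close to the catalytic centre, had 0.18 ± 0.08 and 0.21 ± 0.08 with edgeR adjusted p of 0.0868 and 0.0593. Whether a paralog and the gene it resembles differ in their response was not tested.

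**Figure D4:**
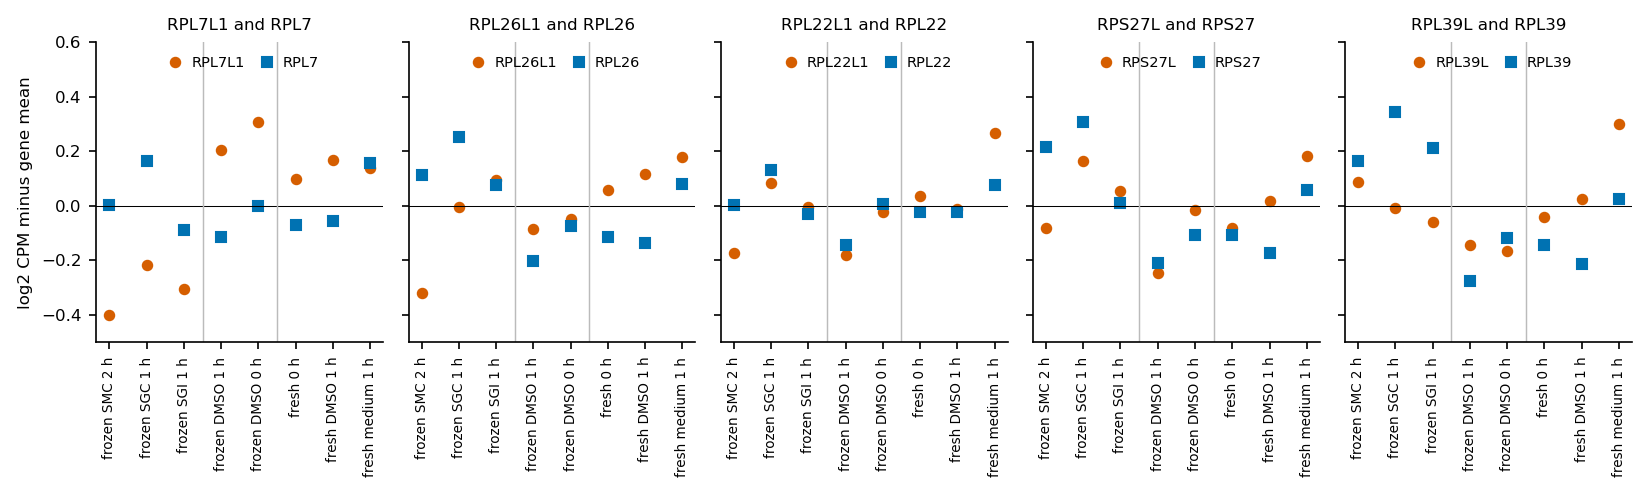
log2 CPM minus the gene's mean in each library for 5 paralogs (circles) and the genes they resemble (squares); grey lines part the osmolyte-frozen, DMSO-frozen and fresh libraries. RPL7L1 is below its average in all 3 osmolyte-frozen libraries and above it in the other 5, while RPL39 and RPS27 are above theirs in the 3 osmolyte-frozen libraries.

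By position in the ribosome, the called genes were spread over the lists. In the stalk, RPLP2, RPLP1 (0.39 ± 0.08, edgeR adjusted p = 0.00187) and RPL12 at its base (0.31 ± 0.08, 0.00723) were higher. RPLP0, the scaffold to which the acidic proteins bind, had 1122, 1165 and 1137 CPM in SMC, SGC and SGI, against 1136 and 1097 CPM in the DMSO-frozen libraries at 1 h and 0 h, with a log2 fold change of 0.03 ± 0.08 (edgeR adjusted p = 0.779). Those libraries overlap, unlike those of RPLP2, RPLP1 and RPL12. Whether the stalk's members differ from one another in their response was not tested. Of 9 genes of the exit tunnel, 6 were higher, namely RPL39 and RPL31 above, RPL17 (log2 fold change 0.31), RPL35 (0.29), RPL26 (0.29) and RPL19 (0.27). RPL4 (0.12), RPL22 (0.10) and RPL23A (0.17) were not called. In the particle of 5S ribosomal RNA, whose proteins can bind MDM2 and so raise p53, RPL11 was higher (0.30 ± 0.08, edgeR adjusted p = 0.013) and RPL5 was not called (0.09 ± 0.08, 0.456).

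Of the 2 genes whose protein is made as a fusion, FAU, with a ubiquitin-like part, was higher (0.24 ± 0.08, edgeR adjusted p = 0.041). RPS27A, a fusion with ubiquitin itself, had 467, 489 and 442 CPM in SMC, SGC and SGI and 424 and 474 CPM in the DMSO-frozen libraries at 1 h and 0 h, and was not called (0.05 ± 0.09, edgeR adjusted p = 0.678). Of 8 Diamond-Blackfan anaemia genes tested, RPS19, RPS24 (0.33 ± 0.09, edgeR adjusted p = 0.00901) and RPL11 were higher, and RPL5, RPL35A, RPS26 (0.18), RPS7 (0.19) and RPS10 (0.22) were not called. Other members near 0 included RPL30 with -0.00 ± 0.09 and RPL35A with 0.06 ± 0.09. RPL21 had 0.44, 0.45 and 0.52 CPM in SMC, SGC and SGI, against 0.61 and 0.79 CPM in DMSO-frozen cells at 1 h and 0 h, and its log2 fold change of -0.57 ± 0.36 did not pass (edgeR adjusted p = 0.245).

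Members with a TOP tract at an annotated start numbered 31 called higher of 48, with a median log2 fold change of 0.28. Of 19 with an entry but no tract found there, 6 were called higher and RPL7L1 lower, with a median of 0.19. The search began only at annotated first bases, so genes whose RNA starts elsewhere may carry a tract that was not counted. The difference between the 2 sets was not tested. Across the 82 members, the log2 fold change had a Spearman correlation of -0.18 with the length in the table and 0.02 with the mean RPKM, as descriptions over genes that share libraries.

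How many members passed depended on the scaling and on the 2 DMSO-frozen libraries. With the total behind the RPKM values as library size, the median over all genes was -0.06 and that over the members 0.14, and 29 members were called higher, all of them among the 44. Of all calls, 26.2% were then in the higher direction, against 45.3% with TMM scaling and 56.4% with library totals alone, under which 58 members were higher. Without the library frozen with DMSO at 1 h, 23 members were called higher, and without that at 0 h, 14. RNA retained in the nucleus moved with the comparison: MALAT1 and NEAT1 together took 0.892, 0.846 and 0.948% of counts in SMC, SGC and SGI, against 0.393 and 0.452% in the DMSO-frozen libraries at 1 h and 0 h and 0.472 to 0.567% in fresh libraries. The part of nuclear RNA, and of the share of the library total that was counted in genes, in these results was not tested.

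Other groups of the translation machinery are read against the same background, in which 13.6% of all genes were called higher and 16.5% lower. Of 76 genes of the mitochondrial ribosome, 6 were higher and 7 lower in osmolyte-frozen than in DMSO-frozen cells, with a median log2 fold change of -0.02 and a 10th to 90th percentile of -0.24 to 0.26. The largest called values were 0.38 for MRPS25 and -0.43 for MRPL19. With library totals alone, 13 were higher and 4 lower, and with the total behind the RPKM values 1 and 11. Of 73 ribosome biogenesis factors, 3 were higher and 12 lower with a median of -0.05, and the lower share was near the background. The helicase DDX21 had 94.7, 88.4 and 95.2 CPM in SMC, SGC and SGI, against 138 and 149 CPM in DMSO-frozen cells at 1 h and 0 h (-0.63 ± 0.10, edgeR adjusted p = 0.000102). UTP20, which processes small-subunit RNA, had -0.66 and the export receptor XPO1 -0.52, and those that were higher were DDX51 (0.53), TAF1C (0.37) and DDX56 (0.33).

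Of 37 initiation, elongation and release factors, 1 was higher and 15 were lower, with a median of -0.12, and under the other scalings 0 to 2 were higher and 14 to 19 lower. The recycling factor ABCE1 had 86.5, 88.8 and 88.3 CPM in SMC, SGC and SGI, against 118 and 128 CPM in DMSO-frozen cells at 1 h and 0 h (-0.48 ± 0.08, edgeR adjusted p = 0.000194). EIF1AX had -0.47 and the release factor ETF1 -0.45, while EIF1, which selects the start codon, was higher at 0.34. Among 24 other mRNAs known for TOP tracts, 7 were higher and 3 lower. SNHG6 (0.58) and GAS5 (0.40), host transcripts of small nucleolar RNAs, and TPT1 (0.34) were the largest increases, and EIF4B (-0.49), IPO7 (-0.49) and PABPC1 (-0.29) were the decreases. With the total behind the RPKM values, 3 were higher and 4 lower. EEF1A1, the most abundant of them, had 10346, 10864 and 9627 CPM in SMC, SGC and SGI and 10345 and 10581 CPM in the DMSO-frozen libraries at 1 h and 0 h, with a log2 fold change of -0.03 ± 0.08.

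Of 24 genes that regulate ribosomal protein mRNAs through mTOR, LARP1 or MYC, 4 were higher and 4 lower, with a median log2 fold change of 0.00. Both counts were near the background of 13.6% higher and 16.5% lower over all genes. DDIT4, an inhibitor of mTOR signalling induced by stress, had 28.4, 44.7 and 39.8 CPM in SMC, SGC and SGI, against 19.7 and 17.3 CPM in the DMSO-frozen libraries at 1 h and 0 h (1.03 ± 0.27, edgeR adjusted p = 0.0301). EIF4EBP1 (0.47), SESN2 (0.45) and RHEB (0.30) were also higher, and RPS6KA3 (-0.57), LARP4 (-0.51), EIF4EBP2 (-0.38) and LARP1 (-0.31) were lower. MYC had 76.8, 80.1 and 66.7 CPM in SMC, SGC and SGI, against 46.3 and 44.2 CPM in DMSO-frozen cells, without passing the test (0.72 ± 0.35, edgeR adjusted p = 0.191). Fresh cells kept in medium had the highest MYC level of all libraries, at 92.2 CPM. A link between the levels of MYC and those of the members was not tested.

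**Figure D5:**
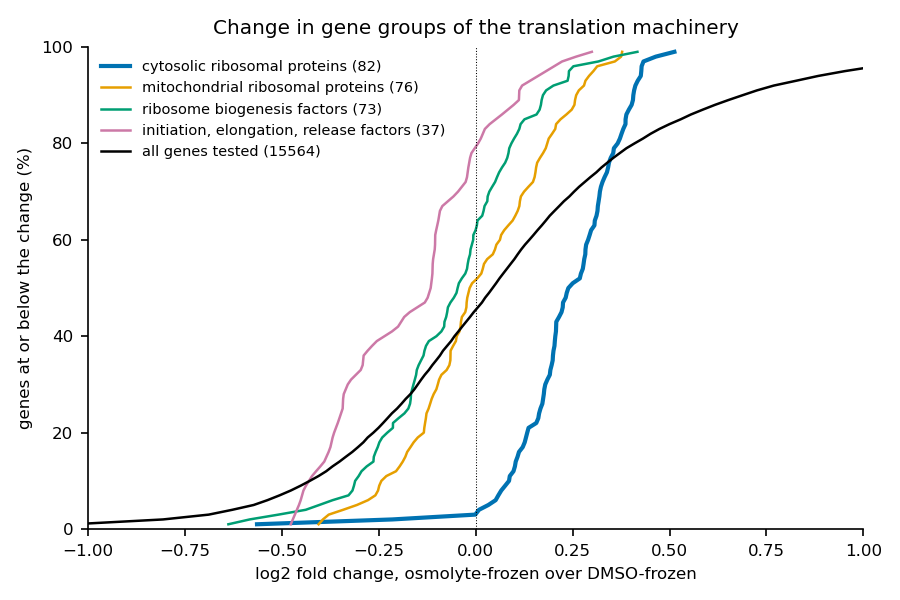
Cumulative share of genes (%) at or below each log2 fold change, osmolyte-frozen over DMSO-frozen cells, for the members, 3 other gene groups of translation and all genes tested. The curve of the ribosomal protein genes is steep, with a median of 0.24, and those of the mitochondrial ribosome (-0.02), biogenesis factors (-0.05) and translation factors (-0.12) lie to its left.

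The second comparison set DMSO-frozen against fresh cells. None of the 82 members passed the test in either direction (edgeR's quasi-likelihood test), with 0 higher and 8 lower at an unadjusted p under 0.05, and DESeq2 called 0 as well. Over all genes tested, 1.253% were called higher and 0.617% lower. Most members were slightly lower, with a median log2 fold change of -0.10 against -0.01 over all genes and a negative value for 80 of 82. Libraries of the 2 groups did not overlap for 28 members in the lower direction and for RPL7L1 in the higher, where 15.4% and 16.0% of all genes did so.

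The smallest adjusted p belonged to RPS26, which lies at the channel where the mRNA leaves the small subunit. It had 49.4 and 53.9 CPM in cells frozen with DMSO at 1 h and 0 h, against 58.1, 63.2 and 73.7 CPM in fresh cells at 0 h, with DMSO and in medium (log2 fold change -0.33 ± 0.10, edgeR adjusted p = 0.0988). The groups did not overlap, and the fresh library in medium stood highest. Without the fresh library at 0 h, 1 member was called lower. The median of the members was -0.04 without the fresh library in medium, and -0.04 with the total behind the RPKM values as library size, under which the median over all genes was 0.05 and 79.6% of all calls were in the higher direction, against 67.0% with TMM scaling. Mitochondrial ribosomal genes had a median of -0.14, and 1 of 76, MRPS6, was called lower.

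The third comparison, of osmolyte-frozen with fresh cells, shares its osmolyte-frozen libraries with the first and its fresh libraries with the second. Of the 82 members, 29 were higher and 2 lower (edgeR's quasi-likelihood test, adjusted p under 0.05), where 19.1% and 21.0% of all genes were called. The median log2 fold change was 0.14 over the members and 0.02 over all genes. Libraries did not overlap for 31 members in the higher direction and 2 in the lower, against 24.8% and 24.8% of all genes. Of the small subunit 9 of 32 were higher, and of the large subunit 20 of 50.

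RPL36A rose most in osmolyte-frozen cells, with a log2 fold change of 0.45 ± 0.10 over fresh cells, which had 31.7, 31.1 and 38.8 CPM at 0 h, with DMSO and in medium (edgeR adjusted p = 0.00206). RPL31 had 0.38 ± 0.07 (edgeR adjusted p = 0.000527), and its fresh levels were 398, 377 and 419 CPM. In both genes all osmolyte-frozen libraries lay above all fresh ones. RPL28 (0.35 ± 0.08), RPL39 (0.35 ± 0.08) and RPS19 (0.34 ± 0.07) were also among the 6 largest increases.

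The decreases were RPL7L1, at -0.44 ± 0.07 (edgeR adjusted p = 0.000126), and RPL21, at -1.09 ± 0.32 (edgeR adjusted p = 0.0124). RPL21 had 0.44, 0.45 and 0.52 CPM in SMC, SGC and SGI, against 0.94, 1.05 and 1.02 CPM in fresh cells at 0 h, with DMSO and in medium, so that the groups did not overlap. At about 1 CPM, and with 66 pseudogenes named after it, its level is uncertain. RPLP0 (-0.07 ± 0.07) and RPS27A (-0.07 ± 0.08) were not called, and FAU stood at 0.03 ± 0.07. The count of higher members was 12 without the fresh library at 0 h, 12 without that with DMSO, 15 without SGC and 37 without the fresh library in medium.

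The other lists are set against the 19.1% of all genes called higher and 21.0% called lower in osmolyte-frozen over fresh cells. Mitochondrial ribosomal genes had 3 higher and 19 lower of 76, biogenesis factors 8 higher and 27 lower of 73, and initiation, elongation and release factors 0 higher and 20 lower of 37. The lower share of the mitochondrial list was near the background. Under the other scalings the lower counts were 13 to 27, 24 to 31 and 19 to 23 in these 3 lists. The nucleolar proteins NPM1 (-0.36 ± 0.08, edgeR adjusted p = 0.001), NCL (-0.36 ± 0.08, 0.0013) and FBL (-0.44 ± 0.08, 0.00044) were all lower in osmolyte-frozen than in fresh cells. NPM1 had 358, 406 and 409 CPM in SMC, SGC and SGI, against 474, 509 and 525 CPM in fresh cells at 0 h, with DMSO and in medium. These 3 genes were chosen for naming after their values were seen, as the best known of the list.

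Libraries with and without DMSO were compared by an additive fit over all libraries, with freezing as the other term. Of these, 3 held DMSO and 5 did not. Every frozen library without DMSO held an osmolyte solution and was cooled at 3 °C per min, against 1 °C per min with DMSO. Among frozen cells, DMSO, osmolyte solution and cooling rate therefore cannot be told apart. Of the members, 27 were lower with DMSO and 1, RPL7L1, was higher, where 6.91% and 9.34% of all genes were called (edgeR's quasi-likelihood test, adjusted p under 0.05). The median log2 fold change was -0.21, against -0.03 over all genes. RPL36A (-0.39 ± 0.10, edgeR adjusted p = 0.0205) and RPLP2 (-0.39 ± 0.09, 0.0141) had the lowest called values, and RPL7L1 stood at 0.38 ± 0.09 (0.0156). Since 2 of the 3 libraries with DMSO are the DMSO-frozen ones, these values come in large part from the first comparison's libraries. Without the library frozen with DMSO at 1 h, or without that at 0 h, 0 members were called lower, without SGC 1, without SGI 2, without SMC 11, without the fresh library in medium 16 and without that with DMSO 41. With the total behind the RPKM values as library size, 2 were called lower, and 83.2% of all calls were in the higher direction, against 57.5% with TMM scaling.

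The conditions with 1 library each were compared as log2 ratios of CPM, with no test, counting members whose higher level was at least 25% above the lower. In fresh cells held for 1 h, the members were lower with DMSO than in medium, by a median of -0.20 on the log2 scale, and negative for 80 of 82, with RPL7L1 (0.03) and RPL21 (0.04) the exceptions. Past that difference 0 were higher and 1 lower, where 8.13% and 5.98% of all genes were. That 1 was RPS15, with 200 CPM with DMSO and 252 CPM in medium. Fresh cells after 1 h in medium stood above fresh cells at 0 h for all 82 members, by a median of 0.15, with 2 members, RPS26 and RPL39L, past that difference and 0 lower, where 4.79% and 8.74% of all genes were. RPS26 had 73.7 CPM in medium and 58.1 CPM at 0 h. Both ratios use the library in medium, which was the highest of the fresh libraries.

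Cells frozen with DMSO at 1 h and at 0 h had nearly the same levels, with a median of -0.02 and 0 members past that difference, where 5.63% and 3.87% of all genes were higher and lower. The extremes among well-counted members were RPL13 at 0.31, with 627 CPM at 1 h and 505 CPM at 0 h, and RPL36A at -0.27. Frozen against fresh cells, both with DMSO for 1 h, gave a median of -0.04, with 0 members higher and 1 lower, where 7.58% and 4.63% of all genes were. The 1 member was RPS26, with 49.4 CPM frozen and 63.2 CPM fresh.

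Among the osmolyte solutions SGC gave the highest levels. SMC lay below SGC by a median of -0.10, negative for 77 of 82 members, and SGI below SGC by -0.11, negative for 79. In neither pair did a member pass that difference, where 6.81% and 6.41% of all genes were higher and lower for SMC over SGC and 5.63% and 3.31% for SGI over SGC. SMC was held for 2 h and SGC for 1 h, so solution and time cannot be told apart in the first of these pairs. At a matched 1 h, SGC over frozen DMSO gave a median of 0.32, with 40 members higher and 1 lower, where 16.7% and 16.6% of all genes were. SGI over frozen DMSO gave a median of 0.21, with 15 higher and 1 lower, where 17.1% and 15.4% were. These 2 ratios share the DMSO library. RPL36A led both, at 0.79 and 0.65, and RPL7L1 was the member past that difference in the lower direction in both, at -0.42 and -0.51.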

How the data were processed

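RNA was sequenced from 8 libraries of H9-derived mesenchymal stromal cells. Per the file headers, the authors deposited both a count and an RPKM value for every gene in every library. The deposited counts are whole numbers without normalisation and entered the tests as such; 0 of them are odd, which no source explains. The deposited RPKM values were scaled by the authors to the table's coding length and to a library total larger than the sum of counts, which was recovered from them. HTSeq, CASAVA 1.9, build hg19 and TopHat (version written there as 12.0.6) are listed in the submitters' processing notes. For the annotation release and the strand setting the entry is: not given in the sources used here. Of 23398 entries, 44 repeated identical counts and were merged, which left 23354 genes.

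The tests ran in edgeR 4.0.16 under R 4.3.3 (filterByExpr by frozen state, 15564 genes kept with all 82 members among them; TMM scaling; glmQLFit with robust estimation; glmQLFTest; Benjamini-Hochberg adjustment at 0.05). A model with 3 group means, leaving 5 residual degrees of freedom, gave the group comparisons (biological coefficient of variation 0.0971), and an additive fit of freezing and DMSO gave the DMSO comparison (0.110). CPM uses the TMM factors, and single-library ratios a prior count of 2 and at least 50 counts in the higher library. Scripts were tested on simulated data. Alternatives were DESeq2 1.42.0, other scalings, no filter, leaving out libraries and the total behind the RPKM values, the last chosen after the data were seen. The chi-square per degree of freedom between libraries, from halved counts, was 6.47 to 73.1, and every library was treated as separate. Precision is limited by the spread between libraries more than by depth.

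The members and gene lists were chosen with earlier results of these data known. Members named with values were those with the 6 largest called changes each way in each group comparison and the 5 highest and 5 lowest by RPKM. Those of the structural and paralog lists and those called against the majority were named too. Of other lists up to 3 called each way were named, except that all called regulators of ribosomal protein mRNAs were. MYC and EEF1A1 were named although neither was called between osmolyte-frozen and DMSO-frozen cells. Sequences are from RefSeq. Some items that this rule names are not reported here.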

Additional observations from a re-analysis of the deposited data

How the results depend on the processing

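RPL7L1 was lower in osmolyte-frozen than in DMSO-frozen cells under every alternative run, with log2 fold changes from -0.66 to -0.51 and edgeR or DESeq2 adjusted p of at most 0.00447. For members higher in osmolyte-frozen than DMSO-frozen cells (44), the total behind the RPKM values gave 29, with a median log2 fold change of 0.14 in place of 0.24, and leaving out 1 library gave 14 to 51. Where that left 1 DMSO-frozen library, the lone library was assumed to vary like the other groups. For DMSO-frozen against fresh cells, lower members (0) numbered 1 with no filter, and 0 to 1 when a library was left out. For osmolyte-frozen against fresh cells, 29 higher members became 12 to 37 when a library was left out. With DMSO against without, 27 lower members became 2 with the total behind the RPKM values (median -0.12 in place of -0.21), 15 with no filter, 41 with DESeq2 and 0 to 41 when a library was left out, and the 1 higher member 0 to 1. Shares on the total behind the RPKM values were 2.78% for osmolyte-frozen, 2.53% for DMSO-frozen and 2.59% for fresh libraries. With library totals alone, 2 members were lower in SMC than SGC in place of 0, and 44 higher in SGI than in DMSO at 1 h in place of 15. The cause of these shifts was not tested. Of the single-gene values under alternatives, 1999 kept their side of the threshold, 142 lost the call and 41 gained it. Another sign than reported was seen in 74 of them, 0 of which were called under either setting, among them RPLP0, RPL35A and RPS27A in osmolyte-frozen over DMSO-frozen cells. No paired analysis was possible because the labels carry no replicate numbers and each condition has 1 library.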
